A study of Homo sapiens with 16 samples.

Results

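EZH2 peaks without H3K27me3 in THLE-2 are the places where the enzyme was called on the chromatin of a liver epithelial line but its histone mark was not. They were taken from the peak list of EZH2 replicate 1, restricted to chromosomes 1 to 22 and X and to peaks shorter than 5000 bp. A peak was kept when it shared no base with a peak of either THLE-2 H3K27me3 list. The rule found 561 of 2081 EZH2 replicate 1 peaks. They were thus chosen by the EZH2 replicate 1 calls, their lengths and the H3K27me3 calls, and these values are given as description only.

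The study used chromatin immunoprecipitation followed by sequencing (ChIP-seq) in 2 established human cell lines, and its title asks how binding of EZH2 and JARID2 to DNA differs in liver cancer. THLE-2 is a non-tumour liver epithelial line and HepG2 a liver carcinoma line, and no treatment or genotype other than the line separates the groups. The libraries used here are EZH2, H3K27me3 and JARID2 in THLE-2 and JARID2 in HepG2, each with 2 replicates and an input library for each replicate. All 561 peaks come from 1 library of THLE-2, so they are not replicates of a condition, and intervals given for shares cover counting error only.

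EZH2 is the catalytic subunit of Polycomb repressive complex 2, which methylates lysine 27 of histone H3, and H3K27me3 is the trimethylated product. JARID2 is an accessory subunit that binds DNA and nucleosomes and helps to recruit the complex. In mammalian cells the complex is known to gather at CpG islands, stretches of DNA rich in CG dinucleotides at many gene starts, where genes of development and of other tissues are held silent.

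Promoter sequences of 7 genes are shown because these peaks lay over annotated gene starts and the CG content of those starts is described further on. Each is the 250 bases before a start in the RefSeq table of GRCh38.p14, 5′ to 3′ on the strand of the gene, with CG dinucleotides in capitals. HECW1 (chr7:43112397-43112646, plus strand) had the highest EZH2 fold in replicate 1. FOXD2 (chr1:47437794-47438043, plus) and BMI1 (chr10:22320849-22321098, plus) were the strongest in EZH2 replicate 2. ATP6V1C2 (chr2:10721380-10721629, plus) and CACNA2D2 (chr3:50504245-50504494, minus) had JARID2 peaks of both lines. PLA2G7 (chr6:46735722-46735971, minus) and KCTD1 (chr18:26657474-26657723, minus) had no EZH2 replicate 2 peak. The stretches shown for these 2 are CG-poor and not typical. The 27 starts under peaks without a replicate 2 peak had a median of 20 CG, and the 112 under peaks with one 23.
HECW1: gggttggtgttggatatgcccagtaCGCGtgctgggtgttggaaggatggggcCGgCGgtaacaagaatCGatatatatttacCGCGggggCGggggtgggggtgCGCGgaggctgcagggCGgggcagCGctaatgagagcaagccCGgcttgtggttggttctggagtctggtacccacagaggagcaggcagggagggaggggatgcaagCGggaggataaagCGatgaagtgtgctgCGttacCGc
FOXD2: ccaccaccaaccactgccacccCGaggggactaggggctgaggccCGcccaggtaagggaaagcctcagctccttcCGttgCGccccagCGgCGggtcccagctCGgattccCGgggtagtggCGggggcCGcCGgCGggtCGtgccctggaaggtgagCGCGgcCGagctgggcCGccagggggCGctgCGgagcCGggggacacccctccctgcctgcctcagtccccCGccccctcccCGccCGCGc
BMI1: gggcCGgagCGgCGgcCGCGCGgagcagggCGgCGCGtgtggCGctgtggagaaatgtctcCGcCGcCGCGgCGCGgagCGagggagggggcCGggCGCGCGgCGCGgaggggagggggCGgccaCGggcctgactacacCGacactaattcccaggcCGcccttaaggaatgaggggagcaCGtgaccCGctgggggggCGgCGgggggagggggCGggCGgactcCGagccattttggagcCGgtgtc
ATP6V1C2: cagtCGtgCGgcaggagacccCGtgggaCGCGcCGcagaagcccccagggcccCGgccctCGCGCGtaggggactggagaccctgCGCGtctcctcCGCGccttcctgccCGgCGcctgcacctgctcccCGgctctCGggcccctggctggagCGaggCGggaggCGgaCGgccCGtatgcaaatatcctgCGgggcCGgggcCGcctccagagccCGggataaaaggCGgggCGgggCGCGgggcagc
CACNA2D2: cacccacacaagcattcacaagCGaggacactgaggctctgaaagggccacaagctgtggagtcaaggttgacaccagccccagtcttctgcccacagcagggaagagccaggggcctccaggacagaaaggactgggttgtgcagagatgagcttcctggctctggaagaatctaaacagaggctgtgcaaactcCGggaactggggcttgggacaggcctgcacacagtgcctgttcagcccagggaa
PLA2G7: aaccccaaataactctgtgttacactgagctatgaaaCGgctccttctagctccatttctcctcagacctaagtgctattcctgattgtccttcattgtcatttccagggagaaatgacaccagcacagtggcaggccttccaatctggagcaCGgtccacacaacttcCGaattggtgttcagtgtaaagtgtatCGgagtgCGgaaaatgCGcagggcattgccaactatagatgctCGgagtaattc
KCTD1: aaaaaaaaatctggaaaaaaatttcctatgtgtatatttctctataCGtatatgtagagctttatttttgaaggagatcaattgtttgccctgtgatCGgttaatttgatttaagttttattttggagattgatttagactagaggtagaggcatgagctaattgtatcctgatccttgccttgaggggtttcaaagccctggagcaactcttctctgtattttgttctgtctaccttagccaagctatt
The BMI1 stretch held 35 CG, ATP6V1C2 31, FOXD2 24 and HECW1 17. PLA2G7 held 7, and CACNA2D2 and KCTD1 held 2 each, so the group spanned CG-dense and CG-poor starts. BMI1, CACNA2D2 and PLA2G7 each have a further start under the same peak, whose 250 upstream bases held 54, 34 and 20 CG. At CACNA2D2 the JARID2 peaks of both lines overlapped the stretch with 34 CG and not the one shown.

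The peaks fell into 2 kinds by size, as the plot of tags and fold against length shows. Tags are the reads counted in a peak, and fold enrichment is the ratio of EZH2 tags to the local input level that the authors' peak caller gave at the summit. Lengths ran from 323 to 4976 bp with a median of 1202 bp, tags from 19 to 959 with a median of 41, and fold from 4.22 to 17.73 with a median of 8.52. Short H3K27me3-marked EZH2 peaks of the same list, 1121 in number, had a median length of 2810 bp, 280 tags and a fold of 7.66. Of the 561 peaks, 240 were under 1000 bp and 88 between 1000 and 1999 bp, while 233 were 2000 bp or longer. A division at 2000 bp is used below; it was chosen after the lengths had been seen.

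**Figure D1:**
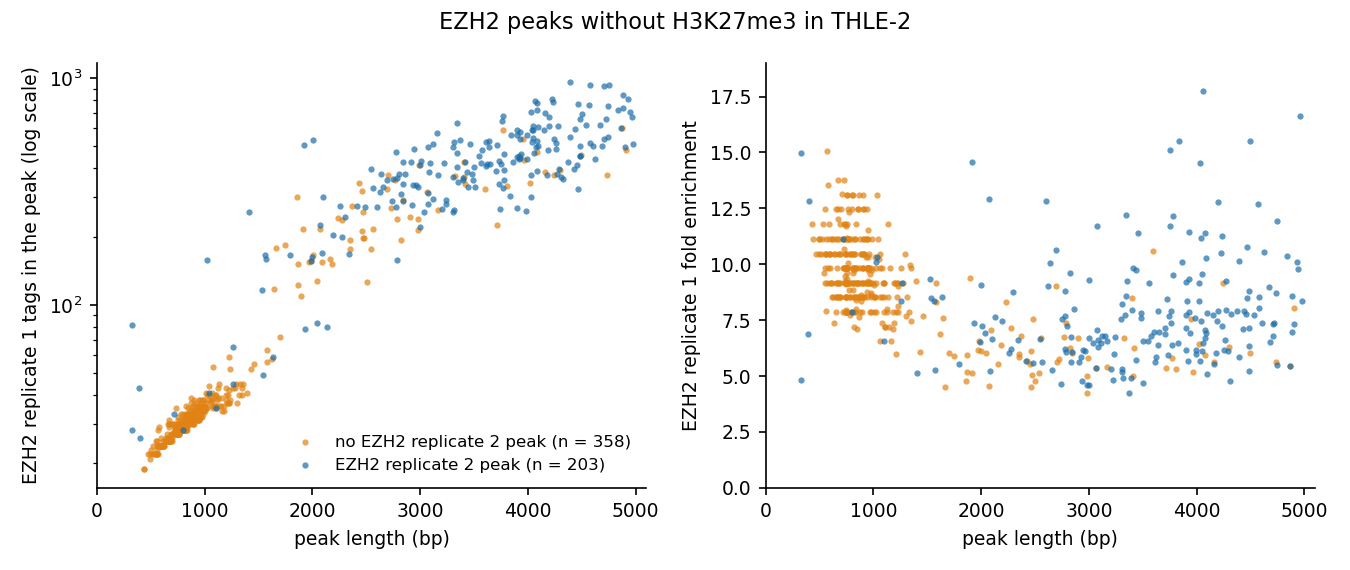
Tags in the peak (left, log scale) and fold enrichment (right) of EZH2 replicate 1 against peak length in bp, 1 point per EZH2 peak without H3K27me3, blue with (203) and orange without (358) an EZH2 replicate 2 peak. Peaks without one crowd under 2000 bp near 30 tags, in horizontal bands of fold, and the blue points lie mostly above 2000 bp.

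On both sides of the length limit lay peaks at genes. The 4 longest were at OLFM1 (4976 bp, fold 8.34), within NRXN2 (4962 bp, fold 16.62), in KCNJ4 (4946 bp, fold 9.77) and at MSI1 (4929 bp, fold 10.12). The 4 H3K27me3-free peaks just over the limit were at SALL1 (5003 bp, fold 4.04), CDH22 (5005 bp, fold 10.64), near LEP (5007 bp, fold 6.38) and at BARX1 (5009 bp, fold 5.52). All 8 had an EZH2 replicate 2 peak. In total 106 of 399 peaks of 5000 bp or more also overlapped no H3K27me3 peak.

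Absence of H3K27me3 here means that no peak was called, and it rested largely on 1 library. H3K27me3 replicate 2 has 90524 peaks over 153 Mb and replicate 1 has 46198 over 91.4 Mb. Of the 1121 marked short peaks, 927 met replicate 2 alone, 33 replicate 1 alone and 161 both. With H3K27me3 replicate 1 as the sole mark list the rule would keep 1488 peaks, and with replicate 2 alone 594. The median distance from the 561 peaks to the nearest H3K27me3 peak was 11810 bp, with a range from 41 bp to 1735874 bp. H3K27me3 lay within 1000 bp of 41 peaks, within 5000 bp of 192 (34.2%) and farther than 100000 bp from 120 (21.4%). KIAA1549L, a gene of poorly known function, was 50 bp from a replicate 2 mark peak and 14212 bp from a replicate 1 mark peak.

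An EZH2 replicate 2 peak lay over 203 of the 561 peaks, 36.2% (Wilson 95% interval 32.3 to 40.2), against 63.1% of all EZH2 replicate 1 peaks. Among short peaks with H3K27me3 the share was 66.4% (63.6 to 69.1), a difference of -30.2 percentage points (95% interval -34.9 to -25.2, Newcombe). Length moved with this share. Of the 240 peaks under 1000 bp only 6 (2.5%) were found again, and from 1000 to 1999 bp 16 of 88 (18.2%). From 2000 to 2999 bp it was 39 of 70 (55.7%), then 73 of 85 (85.9%) and, from 4000 to 4999 bp, 69 of 78 (88.5%).

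Among peaks of 2000 bp or more, 77.7% of those without the mark and 82.7% of those with it were found again, a difference of -5.05 points whose interval, -11.3 to 0.569, includes 0. Under 2000 bp the shares were 6.71% and 28.6%, and the difference of -21.9 points had the interval -27.4 to -16.3. The 203 refound peaks had a median length of 3613 bp and 420 tags, and the other 358 a median of 887.5 bp and 32 tags. Fold did not follow tags: its median was 7.39 in the refound peaks and 9.17 in the others.

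**Figure D2:**
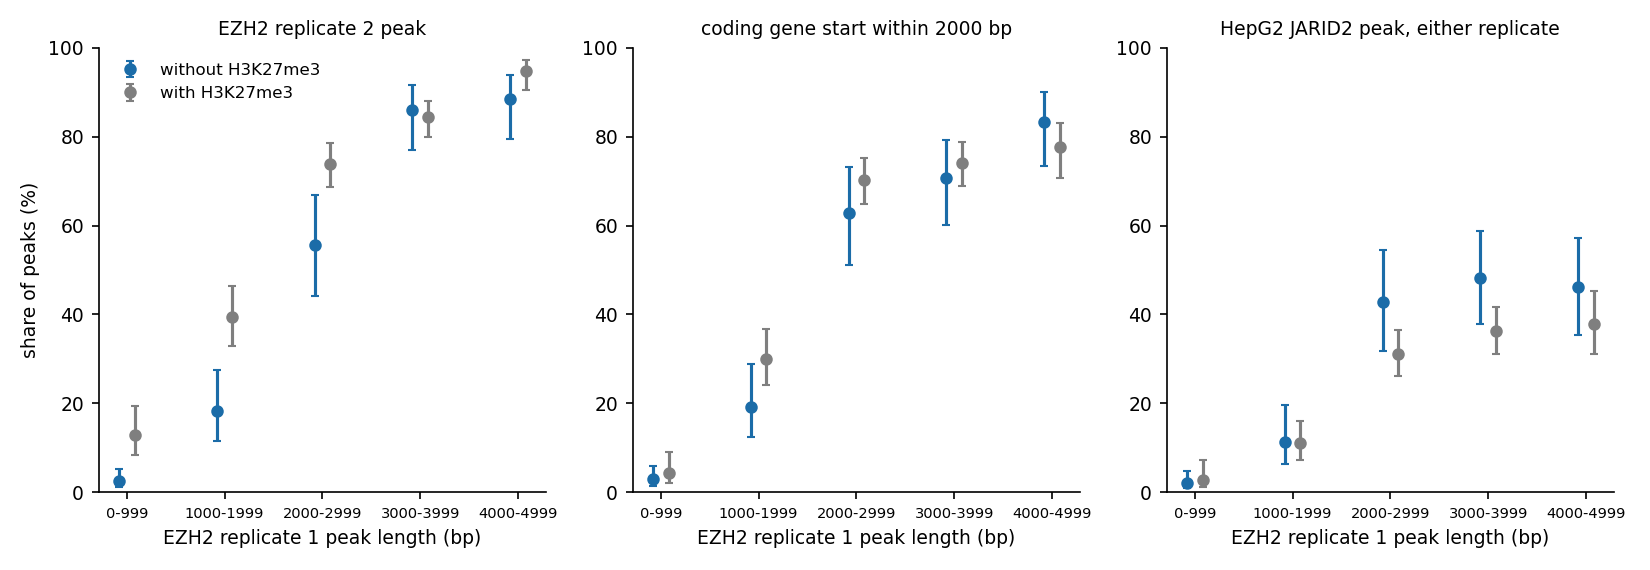
Share of EZH2 replicate 1 peaks (%) with an EZH2 replicate 2 peak (left), a coding gene start within 2000 bp (middle) and a HepG2 JARID2 peak (right) in length bins of 1000 bp, blue without and grey with H3K27me3, bars Wilson 95% intervals. Each share is higher above 2000 bp than below it in both classes, and from 2000 bp upward the blue HepG2 JARID2 points lie above the grey ones.

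Over the 203 refound peaks EZH2 replicate 2 had 204 peaks, of which 201 overlapped no H3K27me3 peak, 3 overlapped one of H3K27me3 replicate 2 and 0 one of replicate 1. In replicate 2 they had a median fold of 5.75, 435 tags and 3419 bp, and 186 of the 203 were under 5000 bp there as well. Fold was higher in replicate 1 for 172 of 203. The replicates were called against different inputs, of 20.3 and 28.1 M tags, so these values rank peaks within a list and do not measure a change.

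BMI1, a subunit of Polycomb repressive complex 1, was the strongest of the 203 in replicate 2. Its peak (chr10:22320989-22323059) covers the gene start and had fold 12.93 from 225 tags in replicate 1 and fold 16.33 from 239 tags in replicate 2. FOXD2, a forkhead transcription factor, followed with 15.5 and 13.2 over its start (chr1:47436643-47441140). Both were also among the 15 highest replicate 1 folds of the refound peaks. HECW1, a ubiquitin ligase, led replicate 1 with 17.73 from 467 tags (chr7:43111101-43115161) but had 5.66 in replicate 2, near the median there.

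Some of the 15 strongest refound peaks covered gene starts. CYS1, a protein of the primary cilium, had fold 15.51 and 7.21 in replicates 1 and 2. DLGAP4, a postsynaptic scaffold protein, had 12.7 and 7.26. The starts of MGAT3, a glycosyltransferase of N-glycans (12.77 and 7.48), ATP6V1C2, a subunit of the proton pump V-ATPase (12.18 and 4.89), and CYP27C1, a cytochrome P450 of vitamin A metabolism (12.16 and 6.6), were covered too.

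Others of the 15 did not lie at a coding start. A peak within NRXN2, a presynaptic adhesion protein, had fold 16.62 and 9.62, 35358 bp from its coding start. A peak 8563 bp from the start of PAX2, a transcription factor of kidney development, had 15.11 and 6.99. A peak in TAL1, a blood stem cell factor, 4334 bp from its start, had 14.53 and 7.07. The rest were far from genes: RESP18 was 24877 bp away (12.85 and 4.77), and peaks of 326 and 401 bp were nearest to WSB1 (14.99 and 12.1) and KHDRBS2 (12.84 and 4.94), at 673902 and 963000 bp. The peaks near WSB1 and KHDRBS2 had few tags, 28 and 26 in replicate 1 and 25 each in replicate 2. The replicate 1 median of the refound peaks was 420.

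**Figure D3:**
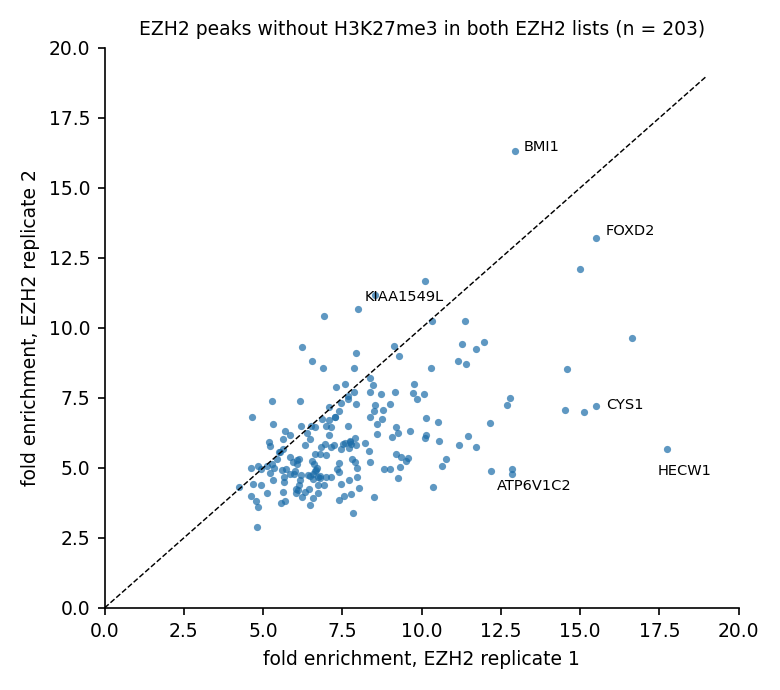
Fold enrichment in EZH2 replicate 2 against replicate 1 for the 203 EZH2 peaks without H3K27me3 that both lists hold, with the line of equal values dashed. Most points, 172 of 203, lie under the line; BMI1 lies above it at 12.93 and 16.33, and HECW1 is farthest right at 17.73.

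A further set of refound peaks was far from any mark. More than 500000 bp from H3K27me3 lay 13 refound peaks, 11 of them under 2000 bp, and their replicate 2 fold ran from 3.6 to 11.66. Chromosome 21 held 7 of them, such as 3 close together near TPTE at chr21:10707123-10707920, chr21:10710359-10711622 and chr21:10715643-10717775, and chromosome 20 held 2. None of the 13 was at a coding gene start, and 3 had a HepG2 JARID2 peak. Over all EZH2 replicate 1 peaks these shares were 55.3% and 29.4%. Among unmarked peaks under 2000 bp they were 7.32% and 4.57%, so 13 peaks are too few to set apart. All 6 refound peaks under 1000 bp were 185540 bp or farther from a coding start. This grouping was made after the distances had been seen, and mappability of these stretches was not tested.

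Peaks found in replicate 1 alone were mostly narrow and low in tags. Of the 8 strongest by fold, 7 are described here. They were nearest to SERPINB7, a protease inhibitor (15.07, 28 tags), HIF1A, the hypoxia factor (13.76, 31 tags), DRAM1, an autophagy regulator (13.76, 29 tags), and MGMT, a DNA repair enzyme (13.55, 29 tags). CWH43 followed (13.14, 30 tags), then IVNS1ABP and PJA2, each at 13.11 from 27 tags. These 7 were 566 to 757 bp long and lay 50285 to 262422 bp from the nearest coding start, and 1, near CWH43, had a HepG2 JARID2 peak (fold 10.04). A high fold was thus reached with few tags.

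The fold values of narrow peaks repeated. The value 9.17 stood in 48 peaks, 8.52 in 36, 9.83 in 33, 10.48 in 30 and 11.14 in 29. These lie on whole multiples of 0.6553, which is what 1 tag is worth over the mean input level of the genome, computed from the input depth, fragment length and genome size in the file header. Within a tolerance of 0.006, 237 of 561 peaks (42.2%) sat on such a multiple, against 17.9% of all EZH2 replicate 1 peaks and 11.7% of short peaks with H3K27me3. All 237 were under 2000 bp, 72.3% of the 328 there, and 0 of 233 longer peaks did, which allows a share of up to 1.29%.

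On that scale the multiples ran from 10 to 23 tags with a median of 15. Of refound peaks 5 of 203 (2.46%) and of the others 232 of 358 (64.8%) had such a value, a difference of -62.3 points (-67.3 to -56.4). The tolerance windows together span 1.83% of the fold scale. The authors' false discovery rate was 100% for all 561 peaks, and it was also at a median of 100% in the whole EZH2 lists, so it does not rank them.

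**Figure D4:**
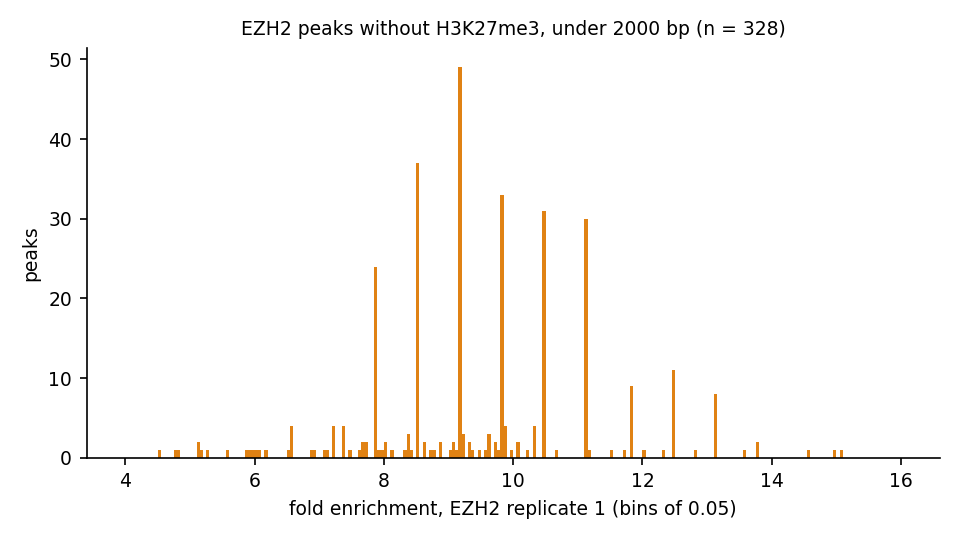
Number of EZH2 peaks without H3K27me3 shorter than 2000 bp (328) by EZH2 replicate 1 fold enrichment, in bins of 0.05. Tall bars stand at 7.86, 8.52, 9.17, 9.83, 10.48 and 11.14, 1 tag step of 0.6553 apart to the rounding of the file, with few peaks between them.

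Long peaks absent from replicate 2 formed a separate group of 52. They had 126 to 602 tags with a median of 282 and a median fold of 6.005. Of them, 34 (65.4%) were at a coding gene start, against 55.3% of all EZH2 replicate 1 peaks and 72.5% of the unmarked peaks of 2000 bp or more. A HepG2 JARID2 peak lay over 25 (48.1%), against 29.4% and 45.9%. The highest in tags was at MMP17, a membrane metalloprotease (602 tags, fold 5.47). It was followed by a peak 6959 bp from CRYBA2 that holds the microRNA gene MIR375 (591 tags, fold 5.81), GDF7, a BMP-type ligand (539 tags, fold 7.55), and a peak 9359 bp from HOXB4 (483 tags, fold 8.05). NTSR1, the neurotensin receptor (458 tags, fold 6.03), belonged to it as well.

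A coding gene start lay within 2000 bp of 193 of the 561 peaks, 34.4% (30.6 to 38.4), against 55.3% of all EZH2 replicate 1 peaks. The share was 57.1% (54.2 to 60) among short peaks with the mark, a difference of -22.7 points (-27.5 to -17.7). It was 70% in the 203 refound peaks and 14.2% in the 358 others, 55.7 points apart (48 to 62.4). Length again moved with it: at 2000 bp or more the share was 72.5% without and 73.4% with the mark (difference -0.869, -7.62 to 5.35), and under 2000 bp 7.32% and 19.5% (difference -12.2, -17.3 to -7.05). In the bins from shortest to longest, 2.92%, 19.3%, 62.9%, 70.6% and 83.3% of the peaks without the mark were at a start.

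The peak itself covered a coding start at 175 of the 561 (31.2%), against 52% of all EZH2 replicate 1 peaks. Only 2 of the 240 peaks under 1000 bp did so, those of UBE2B, a ubiquitin-conjugating enzyme (fold 9.17, 30 tags), and BTN3A1, a butyrophilin (fold 10.34, 33 tags), and neither was in replicate 2. In all, 334 of 561 peaks (59.5%) lay inside or over a coding gene, against 69.8% of all EZH2 replicate 1 peaks, and 222 (39.6%) were farther than 50000 bp from a coding start. Starts of long non-coding RNA genes were within 2000 bp of 49 (8.73%), against 20.8% of all. The peaks were spread over all chromosomes, with most on chromosome 5 (59, 10.5%, against 6.69% of short marked peaks), 49 of them under 2000 bp.

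Among 19970 coding genes, 197 (0.986%) had one of these peaks at the start, and 147 of them had one that replicate 2 also held. Any EZH2 replicate 1 peak was at the start of 1166 genes (5.84%). A start could be taken from the promoter table for 125 of the 197; for the other 72 either annotated end counted, so some may be gene ends. Of the 197, 2 also had a short marked peak and 4 a long EZH2 peak at the start. One such gene was CDH22, a cadherin, where the 5005-bp peak ended 373 bp before a 4026-bp peak.

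Of the 14 gene lists, neuronal and adhesion genes had the highest counts. In the list of neuronal channels, receptors and transporters 6 of 111 genes (5.41%) had an unmarked peak, and all 6 peaks were refound. Among them were the potassium channel KCNA2 (fold 10.28 and 8.58), the NMDA receptor subunit GRIN2C (10.14 and 6.77), the serotonin receptor HTR6 (8.6 and 6.21) and KCNC1 (7.39 and 5.16). GRIN2C had the highest tag count of the 561, 959. Short marked peaks were at 27 genes of that list (24.3%). Over all coding genes the corresponding shares were 0.986% and 3.28%. Of the 197 coding genes with an unmarked peak at the start, 147 had a refound one. Any EZH2 replicate 1 peak was at 43 of the 111 genes, against 5.84% of all coding genes. The list was thus also high for EZH2 peaks in general.

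In axon guidance, adhesion and synapse genes the count was 8 of 113 (7.08%), again all refound, beside 16 (14.2%) with a short marked peak. The refound count over all coding genes was 147 of 197. Any EZH2 replicate 1 peak was at 33 of the 113, so this list too was high for EZH2 peaks in general. The 8 were the cadherins CDH22 and CDH23, the polarity receptor CELSR1, the ephrin EFNA2, the Eph receptors EPHB1 and EPHB3, SEMA5B and the netrin receptor UNC5A. EPHB3 had fold 7.88 and 8.57, and EFNA2 7.09 and 6.17. UNC5A was the nearest coding gene of 3 peaks, 1 over its start (fold 6.73), 1 in the gene 4993 bp from it (7.59) and 1 outside it at 65420 bp (6.63).

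Transcription factors that specify tissues were mostly under other EZH2 peaks. Of 120 homeobox genes outside the HOX clusters, 5 (4.17%) had an unmarked short peak, ALX4, GBX1, HMX1, NOTO and VSX1, while 12 had a marked short one and 65 a peak of 5000 bp or more. GBX1, a factor of brain patterning, had fold 11.26 and 9.43, and VSX1, a retinal factor, 8.73 and 7.63. ALX4, a factor of skull and limb development, had 928 tags in replicate 1 and 1918 in replicate 2, where the peak was 11332 bp long and thus over the length limit. Among forkhead, SOX, GATA, T-box, PAX and bHLH factors 2 of 117 (1.71%) counted, FOXD2 and the T cell factor TBX21 (6.07 and 5.27). Of 39 HOX genes 0 counted, with 19 under a long peak. Any EZH2 replicate 1 peak was at 80 of the homeobox genes, 70 of the 117 factors and 23 of the HOX genes. Over all coding genes 0.986% had an unmarked short peak and 5.84% any EZH2 replicate 1 peak.

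Of signalling genes, 4 of 93 in BMP, TGF-beta, FGF and hedgehog pathways (4.3%) had an unmarked peak: FGF4 (10.37 and 4.33), GDF6 (6.47 and 3.66), BMP6 (6.46 and 4.25) and GDF7, which replicate 2 lacked. RSPO1, a secreted WNT enhancer (6.33 and 4.14), was the 1 of 56 in the WNT list. CLDN3, a tight junction protein (4.93 and 4.37), was the 1 of 66 epithelial-mesenchymal genes, and BMI1 the 1 of 54 Polycomb and Trithorax genes matched. No gene was found in 117 hepatocyte function genes, 33 liver transcription factors or 70 tumour suppressor and liver cancer genes. None was found in 54 blood and endothelial markers or 72 cell cycle and replication genes. The share over all coding genes was 0.986%, and lists of these sizes with 0 or 1 such gene cannot be told apart from it. In the BMP, TGF-beta, FGF and hedgehog list any EZH2 replicate 1 peak was at 23 genes, and in the WNT list at 18. Such a peak was at 8 epithelial-mesenchymal genes and 5 Polycomb and Trithorax genes. It was at 0 of the hepatocyte genes, 7 of the liver factors and 8 of the tumour suppressor and liver cancer genes. The blood and endothelial markers had 8 and the cell cycle genes 1.

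JARID2 of HepG2 was over 118 of the 561 peaks in replicate 1, 21% (17.9 to 24.6), against 29.2% of all EZH2 replicate 1 peaks, and over 6 in replicate 2, 1.07% (0.491 to 2.31), against 0.336%. The HepG2 libraries differ, with 15738 and 4090 peaks, and the union of 122 peaks (21.7%, against 29.4% of all) is 1.07% without replicate 1. JARID2 of THLE-2 was over 10 peaks in replicate 1 (1.78%, against 3.51%) and 16 in replicate 2 (2.85%, against 3.84%), 24 in either (4.28%, 2.89 to 6.29, against 7.02%). Any of the 4 JARID2 lists reached 139 peaks (24.8%, against 33.6%), and 422 met none. The lines have different numbers of JARID2 peaks, so their shares are not compared with each other.

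**Figure D5:**
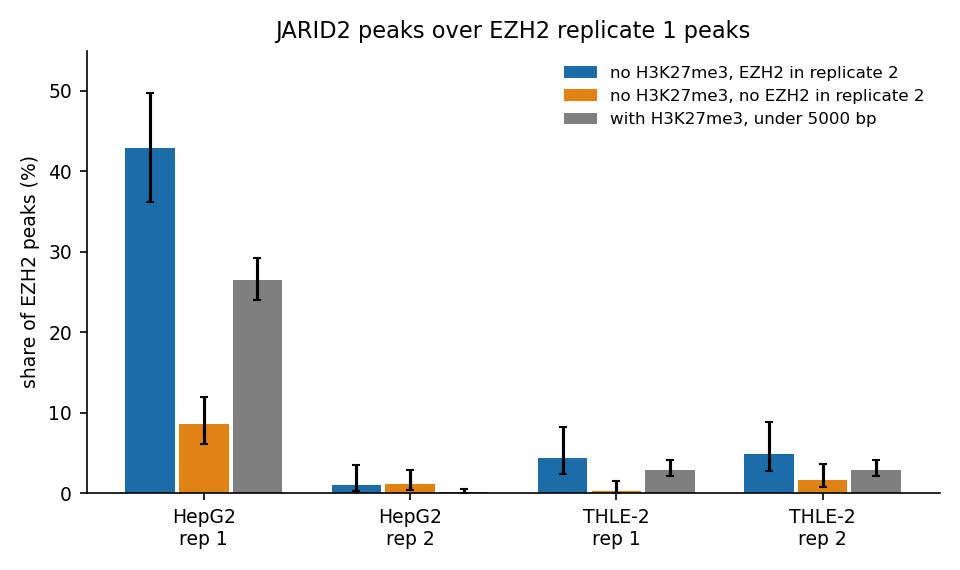
Share of EZH2 replicate 1 peaks (%) with a peak of each JARID2 library, blue for peaks without H3K27me3 that EZH2 replicate 2 also holds (203), orange for those it does not (358), grey for marked peaks under 5000 bp (1121), bars Wilson 95% intervals. HepG2 replicate 1 stands at 42.9%, 8.66% and 26.5%, and every other bar is under 5%.

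JARID2 was set beside the EZH2 replicate 2 call. A HepG2 JARID2 peak of either replicate lay over 88 of 203 refound peaks (43.3%) and 34 of 358 others (9.5%), 33.9 points apart (26.4 to 41.2). For THLE-2 JARID2 it was 17 of 203 (8.37%) and 7 of 358 (1.96%), 6.42 points apart (2.73 to 11.2). Length differs between these classes, as given above. At 2000 bp or more HepG2 JARID2 was over 82 of 181 refound peaks (45.3%) and 25 of 52 others (48.1%), a difference of -2.77 points (-17.8 to 12.1), and THLE-2 JARID2 over 17 (9.39%) and 2 (3.85%), a difference of 5.55 points (-4.22 to 11.4). Under 2000 bp the HepG2 counts were 6 of 22 (27.3%) and 9 of 306 (2.94%), 24.3 points apart (9.98 to 45.3). HepG2 replicate 2 alone met 0.985% of all refound peaks and 1.12% of the others, a difference of -0.132 points (-1.99 to 2.49).

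Among peaks of 2000 bp or more, the unmarked ones met HepG2 JARID2 more often than the marked ones. The shares were 45.9% of 233 and 34.7%, a difference of 11.3 points (4.12 to 18.5). Under 2000 bp they were 4.57% and 7.67%, a difference of -3.1 points (-6.87 to 0.606). Bin by bin the difference was 11.8 points (-0.457 to 24.4) at 2000 to 2999 bp, 12 (0.301 to 23.7) at 3000 to 3999 bp and 8.22 (-4.72 to 21.2) at 4000 to 4999 bp. At 2000 bp or more THLE-2 JARID2 was at 8.15% and 7.54%, a difference of 0.61 points (-2.93 to 5.15). The HepG2 difference rests on replicate 1, where it was 10.8 points (3.71 to 18), since replicate 2 met 0.858% and 0.128% of these peaks. In bins of EZH2 fold, over all lengths, its direction changed. It was 22.5 points (9.5 to 35.1) under fold 6 and -2.01 (-9.89 to 6.55) at 6 to 8. At 8 to 10 it was -8.97 (-15.7 to -1.79), and from 10 upward -11.7 (-19 to -3.62). Length differed within these bins: from fold 10 upward its median was 810 bp without and 2382 bp with the mark.

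SPSB4, an adaptor of a ubiquitin ligase, had the highest HepG2 JARID2 fold, 24.15 from 19 JARID2 tags, under an EZH2 peak that replicate 2 lacked (fold 5.4). MSI1, an RNA-binding protein of neural stem cells, had 23.77 from 37 tags, and its EZH2 peak had 10.12 and 6.17 in the EZH2 replicates. PGBD5, a transposase-derived gene (20.6), ADAMTS8, a metalloprotease (20.38), ATP6V1C2 (19.91), the potassium channel KCNA6 (19.46) and PLA2G7, which inactivates platelet-activating factor (18.78), followed. FGF4 (18.05), EFNA2 (17.38), DUSP9, a phosphatase of MAP kinases (15.36), and TUB (13.87) were also met at their start, and PAX5, the B cell factor, in its body (14.49). All 12 values are of HepG2 replicate 1, in which JARID2 peaks over the 561 had a median of 25 tags, against 12 in its whole list. The median fold of these 118 was 9.165, below the 10.3 of the whole list.

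HepG2 JARID2 replicate 2 met only 6 of the peaks, 2 of which replicate 1 also met. Its 6 were nearest to CFAP126, ZNF37A, CDH8, UQCRFS1, DEFB115 and EMB, from 59762 to 1844203 bp away from the coding start, and none was at a gene start. Near EMB both HepG2 JARID2 replicates (6.81 and 5.63) and both EZH2 replicates (5.13 and 5.07) had a peak. DEFB115 was the other with both HepG2 JARID2 replicates (8.18 and 6.94). These 6 were named after their values had been seen, and mappability at their positions was not tested.

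THLE-2 JARID2 peaks over the 561 had 12 to 39 tags in replicate 1 (median 15.5, against 13 in its whole list) and 12 to 32 in replicate 2 (median 17, against 14). Their median fold was 8.395 in replicate 1, against 9.04 in its whole list, and 8.27 in replicate 2, against 8.31. TRABD2B, a protease that inactivates WNT ligands, had the highest fold, 12.47 in replicate 2, with CACNA2D2, a calcium channel subunit (10.83 in replicate 1), and ATP6V1C2 (10.58 in replicate 2) next. INSYN1 (9.88), KCNK17 (9.6), the peak near PAX2 (9.23), ALX4 (9), KCNA2 (8.42) and HMX1 (8.16) each had a peak in 1 replicate. Both THLE-2 JARID2 replicates met 2 of the 561. At KIAA1549L JARID2 fold was 8.47 and 5.64 and EZH2 fold 8 and 10.66. Its JARID2 peaks, chr11:33376738-33377599 in replicate 1 and chr11:33375230-33376678 in replicate 2, did not overlap each other. A peak 9121 bp from TBX15, a T-box factor, had JARID2 fold 8.03 and 5.32 and EZH2 fold 5.97 and 4.79. These 2 EZH2 peaks were picked out after the values had been seen.

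JARID2 of both lines met 7 of the 561 (1.25%, 0.606 to 2.55), against 2.79% of all EZH2 replicate 1 peaks, and 6 of the 7 were at a coding start. These were TRABD2B, SLC60A1, the potassium channel KCNH3, ATP6V1C2, CACNA2D2 and the DPYSL2 and PNMA2 pair, and 1 lay 59762 bp from CFAP126. At CACNA2D2 the HepG2 peak (chr3:50502568-50504137) and the THLE-2 replicate 1 peak (chr3:50502932-50503653) overlapped each other within the EZH2 peak (chr3:50501351-50504763). The same held at ATP6V1C2, with chr2:10721325-10722323 in HepG2 and chr2:10720878-10721871 in THLE-2 inside chr2:10720248-10723590. At TRABD2B the EZH2 peak was missing from replicate 2.

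The starts under these peaks were CG-rich. The peaks covered 139 starts of the promoter table, from 112 genes, and their 250 upstream bases had a median GC content of 71.6%, against 62% over all 22155 starts and 70% over the 619 starts under short marked peaks. The ratio of observed to expected CG was 0.74, against 0.71 and 0.80. The letters CGCG, the same on both strands, stood in 80.6% of the 139 promoters, 58.2% of all and 80.1% of the marked ones. TATAAA on either strand stood in 3 of the 139 (2.16%), in 9% of all and in 6.14% of the marked.

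Promoters of refound peaks had a median GC of 72.2% and a ratio of 0.75 (112 starts), and those of the others 66.8% and 0.69 (27 starts). The 19 of these 27 under peaks of 2000 bp or more had 72% and 0.76. The 12 starts of both kinds under peaks shorter than 2000 bp had 58.8% and 0.60. Where HepG2 JARID2 lay on the peak, GC was 74% over 75 starts, and 69.8% over the other 64. A letter match describes the sequence and is no evidence of a factor, and these values were set side by side without a test.

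MicroRNA genes lay under 5 of the unmarked peaks. The share among all EZH2 replicate 1 peaks was not counted, so 5 is not read as many or few. Mature strands of 2 microRNAs are shown because these are the known ones of islet cells (miR-375) and of skin (miR-203a). The sequences are from RefSeq, 5′ to 3′, with the seed, bases 2 to 8, in capitals.
hsa-miR-375-3p: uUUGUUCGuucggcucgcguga
hsa-miR-203a-3p: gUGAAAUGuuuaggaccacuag
MIR203A and its antisense partner MIR203B lay under the peak at ASPG (chr14:104115527-104119814), which had fold 6.1 and 4.21 in the EZH2 replicates and a THLE-2 JARID2 replicate 1 peak of 8.1. MIR375 lay under the peak of chr2:219000381-219004151, which had no EZH2 replicate 2 peak and a THLE-2 JARID2 replicate 2 peak of fold 8.06. The other 3 were MIR4488 (8.03 and 4.29), MIR6717 (6.49 and 4.72) and MIR4281 (8.74 and 6.74), all refound. The seeds of the 2 shown differ.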

How the data were processed

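ChIP-seq peak lists of 8 immunoprecipitated libraries, each called against its own input, were used. Per the submitters' processing notes, the tools were cutadapt, Bowtie2 and MACS 1.4.2 and the build was GRCh38; versions of the first pair are not stated in the sources at hand. As the file headers record, peaks were called library by library from uniquely mapped reads at a p cutoff of 1e-05 with at most 1 tag per position. The deposited values per peak are a tag count, a score (-10 times log10 p), a fold enrichment (a ratio of IP to local input) and a false discovery rate in percent, per the file headers. Filtered tags (M) were 29.6 and 32.4 for EZH2, 39 and 38.1 for H3K27me3, 7.95 and 14.6 for HepG2 JARID2 and 11.7 and 13 for THLE-2 JARID2.

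Overlap meant 1 shared bp. Gene starts came from the RefSeq promoter table (15811 of 19970 coding genes) and, for 4159 genes without an entry, from both annotated ends, since the gene table holds no strand; the planned start window was 2000 bp. Shares have Wilson 95% intervals and differences Newcombe intervals; both were checked on simulated data, and no test across peaks was run, as peaks of 1 library are not replicates. Of 56 Polycomb and Trithorax genes, 54 were matched, and in the other lists all. Python 3.11.15, numpy 2.4.6, pandas 2.3.3, scipy 1.17.1 and matplotlib 3.10.9 were used.

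The members and the 14 gene lists were chosen with earlier results of these data known. Genes were named by rule: the 15 highest EZH2 replicate 1 folds with and 8 without a replicate 2 peak, up to 12 by JARID2 fold per line, up to 6 per list, and the 4 lengths nearest the limit on each side. Names outside it are said to be chosen after the values were seen. This also holds for the tag-rich peaks absent from replicate 2, the peaks near TPTE, UBE2B, BTN3A1, KCTD1, UNC5A's neighbours and the microRNA genes. A few genes that the rule takes are not reported here. Alternatives varied overlap, window, length, score and the libraries used.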

Additional observations from a re-analysis of the deposited data

Results flagged for a closer look

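On unplaced or alternative contigs, outside the chromosomes used above, the EZH2 replicate 1 list held 29 peaks. Of these, 20 were under 5000 bp and overlapped no H3K27me3 peak, so that they meet the same definition in sequence that entered no comparison. An EZH2 replicate 2 peak lay over 12 of the 20, a HepG2 JARID2 peak over 3 and a THLE-2 JARID2 peak over 1. Their values are given with no explanation.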

How the results depend on the processing

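Of 58 alternatives to 6 results, 23 moved the value by less than its counting interval (or, for counts, by under 1.5 times) and 35 moved it further; the cause was not tested. The number of peaks, 561, became 369 when H3K27me3 within 5000 bp counted as overlap and 156 at an EZH2 score of at least 100, and ran from 594 to 1654 with 1 library left out: 1488 without H3K27me3 replicate 2 and 1654 with EZH2 replicate 2 in place of replicate 1.

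The share refound in the other EZH2 replicate, 36.2%, was 85.3% at a peak score of at least 100, 25.5% with replicate 2 peaks of that score, 32.2% for peaks over 5000 bp from the mark, 44.5% with no length limit, 15.3% under 3000 bp and 77.7% at 2000 bp or more. It ran from 13 to 59.8% with 1 library left out, the lowest without EZH2 replicate 1 and the highest without H3K27me3 replicate 2. Leaving out EZH2 replicate 2 gives no value.

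The HepG2 JARID2 share, 21.7%, was 8.2% with JARID2 scores of at least 100, 43.3% for refound peaks, 11.3% under 3000 bp, 45.9% at 2000 bp or more, and from 1.07 (without HepG2 JARID2 replicate 1) to 27.5% with 1 library left out (9.43% without EZH2 replicate 1). The THLE-2 JARID2 share, 4.28%, was 0.178%, 8.37%, 2.26% and 8.15% under the same settings and from 1.78 to 5.78% with 1 library left out (1.78% and 2.85% for single JARID2 replicates, 2% without EZH2 replicate 1).

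The share at coding starts, 34.4%, was 59.5% for whole gene bodies, 70% for refound peaks, 29% over 5000 bp from the mark, 76.3% at a score of at least 100, 72.5% at 2000 bp or more, 21.9% with promoter-table starts alone, and from 14.2 (without EZH2 replicate 1) to 54.2% (without H3K27me3 replicate 2) with 1 library left out. The 197 genes became 126 at a score of at least 100. The settings at 2000 bp or more and with promoter-table starts were added after seeing the data. No paired analysis was possible because the results are counts and shares of peaks, which come from no test across samples.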
